A study of Mus musculus with 19 samples.

Results

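The genes described here encode molecular chaperones and their helpers: 42 genes for proteins that fold other proteins in the endoplasmic reticulum (ER), in mitochondria and in the cytosol, with the ER stress regulators that govern part of them. Members were taken by gene symbol from the platform's probe-set annotation, with the brightest probe set standing for a gene that had several. Of the 42 genes, 41 were matched among the 19752 genes measured, and Hsp90ab1, the second cytosolic HSP90 gene, was not analysed here. The 41 comprised 15 ER folding genes, 6 genes of ER quality control and stress regulation, 4 mitochondrial chaperones, 8 cytosolic HSP70 and HSP90 chaperones or co-chaperones and the 8 subunits of the cytosolic chaperonin CCT.

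The study asked how blocking the Janus kinases JAK1 and JAK3 alters the response of natural killer (NK) cells to interleukin-2 (IL-2), a growth cytokine whose receptor signals through both kinases. NK cells came from spleens of male C57BL/6 mice aged 6 weeks and were enriched by negative selection, so that cells of other types can remain, and the RNA of each of the 19 samples was measured on its own Affymetrix Mouse Gene 1.0 ST array. The labels name NK1.1 as the phenotype marker, no sorting gate and no genetic change in the mice. Untreated cells gave 3 samples (replicates 2, 3 and 4, of which the titles give 8 h for replicates 3 and 4 and no time for replicate 2), and IL-2 at 250 U/ml for 8 h gave 4. All other samples received the same IL-2 with an inhibitor known only by a code name. The JAK3 inhibitor 6226 was used at 0.25, 1 and 4 µM with 2 samples each. The JAK1 inhibitor 3404 was used at 0.0625 µM (1 sample), 0.25 and 1 µM (2 samples each) and 4 µM (1 sample). The labels do not tell whether replicates stem from different animals or were cultured apart. The p-values therefore rest on differences among the arrays of a group, and those may be technical.

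Chaperones bind unfolded proteins and help them reach or keep their shape. HSP70 proteins (Hspa8 in the cytosol, Hspa5 or BiP in the ER, Hspa9 or mortalin in mitochondria) bind exposed hydrophobic stretches in a cycle driven by ATP, DNAJ proteins start that cycle, and nucleotide exchange factors such as Hsph1 and Hyou1 reset it. HSP90 proteins, chaperonins (Hspd1 with its lid Hspe1, and CCT) and disulfide isomerases act on later folding steps. The unfolded protein response induces ER chaperones through the transcription factors XBP1 and ATF6, which act at ER stress response elements, and heat shock factor induces cytosolic and mitochondrial chaperones through heat shock elements. Lymphocytes that are activated by cytokines grow and make large amounts of protein, including secreted and membrane proteins that fold in the ER.

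Promoter sequences of ER folding genes are shown first because many hold the same element, which few other genes have. RefSeq promoter windows (GRCm38.p6, 250 bases before to 50 after the start) were found for 34 of the 41 members. The ER stress response element was searched on both strands as CCAAT, any 9 bases and CCACG. It lay in 7 of 13 ER folding genes with a window (53.8%), in 0 members of the other 4 groups, and in 37 of 27025 genes (0.137%). Capitals mark the element, which runs as CGTGG to ATTGG where it lies on the other strand.
Hspa5 (chr2:34772010-34772058, plus strand): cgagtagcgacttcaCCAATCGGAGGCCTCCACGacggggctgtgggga
Creld2 (chr15:88819505-88819553, plus strand): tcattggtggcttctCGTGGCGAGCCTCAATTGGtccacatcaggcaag
Hsp90b1 (chr10:86705518-86705671, minus strand): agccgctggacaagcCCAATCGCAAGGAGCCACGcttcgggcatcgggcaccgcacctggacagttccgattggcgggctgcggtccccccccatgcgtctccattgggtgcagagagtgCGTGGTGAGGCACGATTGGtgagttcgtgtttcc
Pdia6 (chr12:17266476-17266524, plus strand): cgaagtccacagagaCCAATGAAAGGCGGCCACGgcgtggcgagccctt
Calr (chr8:84847060-84847108, minus strand): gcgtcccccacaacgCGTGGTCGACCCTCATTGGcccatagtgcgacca
Canx (chr11:50325785-50325833, minus strand): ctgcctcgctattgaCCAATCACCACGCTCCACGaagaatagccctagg
Dnajc3 (chr14:118937812-118937860, plus strand): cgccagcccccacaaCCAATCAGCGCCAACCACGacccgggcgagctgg
The element began 65 bases before the start in Hspa5 and 126 bases before it in Creld2, and Hsp90b1 held 2 copies, at 212 and 107 bases. These matches describe the letters in the window and do not show that a factor binds there.

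A related element and the heat shock element were found in other members. ER stress response element II, searched as ATTGG, any 1 base and CCACG, was in 2 members, the DNAJ co-chaperone gene Dnajb11 and Herpud1, and in 12 of 27025 genes (0.0444%). A heat shock element of 3 alternating units, searched as TTCNNGAANNTTC and GAANNTTCNNGAA, was in Hspd1, Hspe1 and Hsph1 and in 179 of 27025 genes (0.662%). Hspd1 and Hspe1 lie head to head on chromosome 1 with gene models that share 96 bases, so the same letters, 2 overlapping copies of the pattern, fall in windows of both.
Herpud1 (chr8:94386362-94386402, plus strand): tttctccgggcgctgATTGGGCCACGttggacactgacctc
Hspe1 (chr1:55088054-55088081, plus strand): gtccgTTCTAGAACCTTCCGGAAggccc
Capitals mark the elements in both lines. The E-box CACGTG was in 4 members (8.09% of genes with a window), the pattern TTCNNNGAA of STAT5, a transcription factor that the IL-2 receptor activates, in Cct5 alone (9.55% of genes) and the XBP1 core TGACGTG in Hspa5 alone (2.22% of genes). The motifs were counted separately and could overlap each other.

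The deposited intensities lay on 2 scales, with 7 high-intensity samples (array medians of 7.49 to 7.59 on the log2 scale) and 12 low-intensity samples (5.70 to 5.90), and the fit held a term for the set, which ranged from 1.03 to 2.74 among the members. Every level below is a log2 value after that term was removed from the high-intensity samples. Levels are not comparable between genes, and between the 2 sets only as far as 1 shift per gene links them. In the high-intensity set 20.0% of probe sets had a value shared by 3 or more samples, and in the low-intensity set 0%. Herpud1 and Hspa4 were the 2 members with such a value, and what made these shared values is not known. Replicates of a group correlated at 0.962 to 0.995 as deposited. The 14 NK cell markers averaged 7.64 to 7.91 in untreated samples and 8.92 to 9.33 with IL-2. Of these markers 12 rose, against 6.56% of all genes, a share that stands beside each count of risen genes in this paragraph. The list holds Gzma, Prf1 and Il2rb, and whether more NK cells or more RNA per cell raised it was not tested. Of the markers of other cells, 7 of 12 macrophage and monocyte genes, 6 of 12 neutrophil genes and 4 of 10 B cell genes fell with IL-2. How many of all 19752 genes fell is given with the quantile result in the section on processing below. The macrophage list averaged 6.94 to 7.18 in untreated and 6.11 to 6.38 in IL-2 samples. Of 12 plasma cell genes, cells known for abundant ER chaperones, 2 rose with IL-2 (Xbp1, itself a member, and Slamf7) and 0 fell, and the list averaged 7.09 to 7.37 in untreated and 7.15 to 7.22 in IL-2 samples. In the other lists 2 of 10 dendritic cell genes rose and 2 fell, 1 of 5 erythroid genes rose, and of 10 T cell genes 0 passed by limma (2 at an unadjusted p under 0.05). The part of these other cells in the results was not tested, and in such bulk samples fewer cells of a type and less RNA per cell cannot be told apart.

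IL-2 raised most of the chaperone genes. By limma (Benjamini-Hochberg adjusted p under 0.05 over all genes), 29 of 41 members were higher in IL-2 than in untreated cells and 0 were lower, against 6.56% of all genes higher. The median change was 0.68 on the log2 scale (a difference, IL-2 minus untreated), with −0.01 over all genes. All 4 IL-2 samples lay above all 3 untreated samples for 29 members, against 10.4% of genes. ER folding genes rose in 13 of 15 (median 0.74), CCT subunits in 7 of 8 (0.77), mitochondrial chaperones in 3 of 4 (0.87) and cytosolic chaperones in 5 of 8 (0.60), while ER quality control and stress regulators rose in 1 of 6 (0.12). Differences between these groups of genes were not tested.

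**Figure D1:**
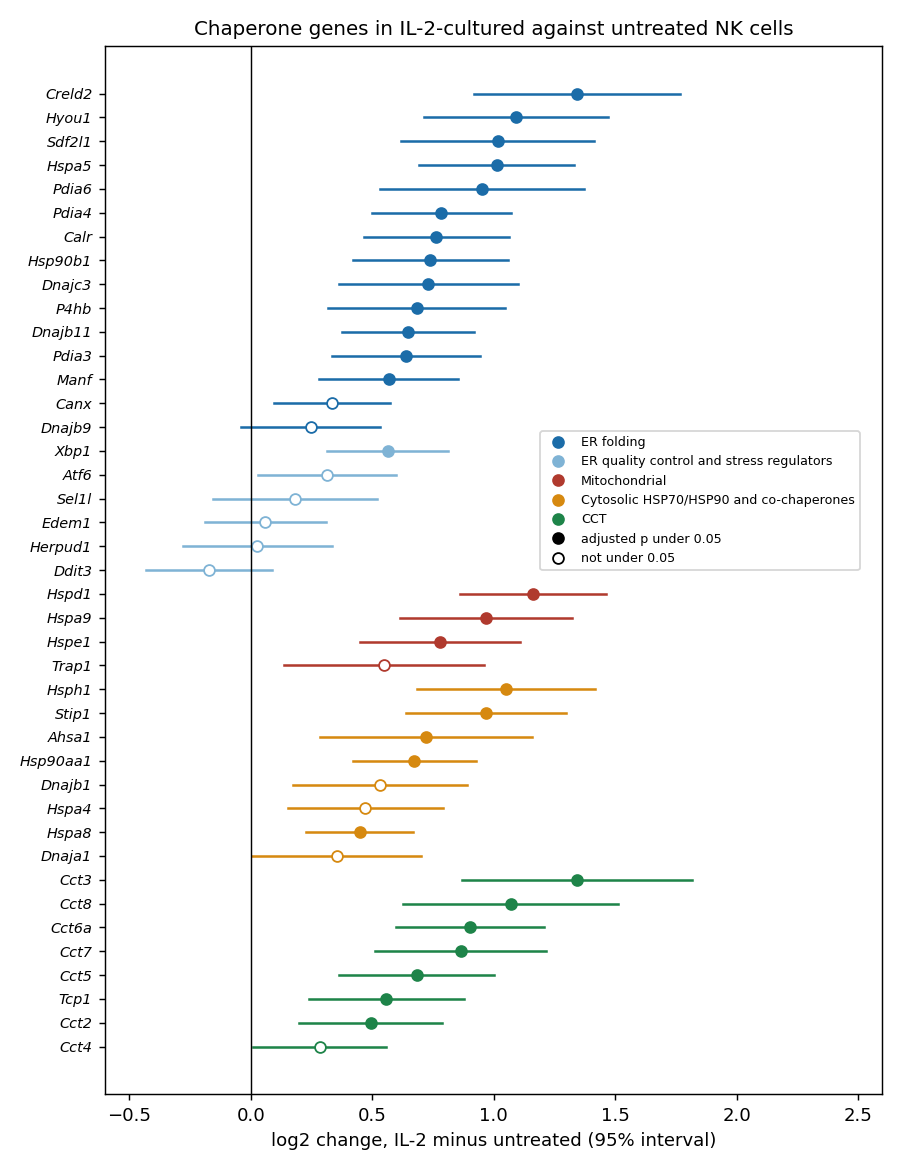
Change of each of the 41 chaperone genes in IL-2-cultured against untreated NK cells (x axis, log2 units, circle with 95% interval from limma), ordered by group and size. Filled circles passed an adjusted p of 0.05 (29 genes), and the 5 open circles among the 6 ER regulators range from −0.17 to 0.31.

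Among ER folding genes, Creld2, a disulfide isomerase-like protein of the ER stress response, rose most. Its level was 7.73, 6.68 and 7.46 in untreated replicates 2, 3 and 4 and 8.26, 8.70, 8.87 and 8.70 in IL-2 replicates 1 to 4. The groups did not overlap, with untreated replicate 3 far below the other untreated samples, and the change was 1.34 ± 0.20 (SE), a 2.54-fold rise (adjusted p = 0.000121). Hyou1, the exchange factor of BiP, was at 8.28, 7.45 and 8.24 in untreated and 8.72, 9.13, 9.14 and 9.33 in IL-2 samples, again without overlap and again with untreated replicate 3 lowest (1.09 ± 0.18, adjusted p = 0.000326). Sdf2l1, a partner of the BiP and DNAJB11 complex, was at 7.72, 7.09 and 7.50 in untreated and 8.07, 8.56, 8.62 and 8.56 in IL-2 samples. IL-2 replicate 1 was the lowest of its group there and still above every untreated sample (1.02 ± 0.19, adjusted p = 0.00108).

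BiP itself, Hspa5, whose promoter excerpt opens the list above, was chosen for its per-sample values after these had been seen. It was at 9.64, 9.03 and 9.30 in untreated and 9.94, 10.37, 10.54 and 10.49 in IL-2 samples, a change of 1.01 ± 0.15 (2.02-fold, adjusted p = 0.000128) with no overlap. The other 9 ER folding genes that rose were the disulfide isomerases Pdia6 (0.95), Pdia4 (0.78), P4hb (0.68) and Pdia3 (0.64), the lectin chaperone Calr (0.76), the HSP90 of the ER Hsp90b1 (0.74), the co-chaperones Dnajc3 (0.73) and Dnajb11 (0.65), and the secreted ER protein Manf (0.57). The membrane-bound lectin chaperone Canx (0.33 ± 0.11, adjusted p = 0.082) and the BiP co-chaperone Dnajb9 (0.25 ± 0.14, adjusted p = 0.359) did not pass. The 7 ER folding genes with the ER stress response element had a median change of 0.76 (range 0.33 to 1.34), and the 6 with a window and no such letters 0.66 (0.25 to 1.02), which is given as a description.

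Among the ER regulators, Xbp1, the transcription factor of the unfolded protein response that is activated by splicing of its mRNA, was at 9.20, 9.02 and 9.17 in untreated and 9.60, 9.71, 9.74 and 9.72 in IL-2 samples, without overlap. It was the only one of the 6 to rise (0.56 ± 0.12, adjusted p = 0.00321), and its values on the array do not tell spliced from unspliced mRNA. Atf6, the membrane-bound sensor and transcription factor, was at 8.14, 7.88 and 8.03 in untreated and 8.13, 8.40, 8.36 and 8.44 in IL-2 samples. IL-2 replicate 1 fell within the untreated range there, and the change of 0.31 ± 0.14 did not pass (adjusted p = 0.201). Ddit3 (CHOP), the transcription factor linked to death under lasting ER stress, was at 6.74, 6.70 and 6.61 in untreated and 6.63, 6.48, 6.52 and 6.43 in IL-2 samples. Its groups overlapped through IL-2 replicate 1, its change was -0.17 ± 0.12 (adjusted p = 0.531), and it was the only member with a negative estimate. The ER-associated degradation genes Sel1l (0.18, adjusted p = 0.635), Edem1 (0.06, adjusted p = 0.865) and Herpud1 (0.03, adjusted p = 0.954), the last with ER stress response element II, did not pass either.

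All but 1 of the 4 mitochondrial chaperones rose. Hspd1 (HSP60), the chaperonin of the matrix, was at 7.74, 7.30 and 7.55 in untreated and 8.48, 8.66, 8.72 and 8.93 in IL-2 samples and rose 2.24-fold (1.16 ± 0.14, adjusted p = 1.16e-05). Hspa9, the matrix HSP70, was at 8.01, 7.41 and 7.70 in untreated and 8.33, 8.82, 8.71 and 8.85 in IL-2 samples (0.97 ± 0.17, adjusted p = 0.000544). Hspe1 (HSP10), the lid of the HSP60 chamber, was at 8.64, 8.65 and 8.26 in untreated and 8.93, 9.48, 9.27 and 9.49 in IL-2 samples (0.78 ± 0.16, adjusted p = 0.00228). None of these 3 genes had overlapping groups, and IL-2 replicate 1 was the lowest IL-2 sample in each. Trap1, the mitochondrial HSP90, had an estimate of 0.55 ± 0.20 that did not pass (adjusted p = 0.0981). A second Hspd1 probe set gave a larger change, 1.71, and the second Hspe1 probe set gave 0.79, a comparison added after the data had been seen. Several chaperone genes, Hspd1, Hspe1, Hspa8 and Hsp90aa1 among them, have processed pseudogenes. Numbers of the members' probe sets run by chromosome, with exceptions. The brightest probe sets of Hspd1 (chromosome 1) and Hsp90aa1 (chromosome 12) are numbered between those of Cct4 and Canx on chromosome 11. That of Hspa8 (chromosome 9) lies between those of Cct6a and Hsph1 on chromosome 5. Their values may thus be those of copies elsewhere, and which copies a probe set reads was not tested.

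In the cytosol, the largest rise was in Hsph1 (HSP110), the exchange factor of HSP70, which was at 6.20, 5.59 and 5.66 in untreated and 6.38, 6.88, 6.95 and 7.25 in IL-2 samples. The groups came close between untreated replicate 2 and IL-2 replicate 1 without overlapping, and the change was 1.05 ± 0.17 (adjusted p = 0.000335). In untreated replicates 3 and 4 Hsph1 lay below the medians of their arrays (5.77 and 5.83). Stip1 (HOP), the adaptor that joins HSP70 to HSP90, was at 7.97, 7.28 and 7.86 in untreated and 8.50, 8.75, 8.74 and 8.69 in IL-2 samples, with no overlap (0.97 ± 0.16, adjusted p = 0.000273). Ahsa1, the activator of the HSP90 ATPase, was at 7.76, 6.65 and 7.39 in untreated and 7.62, 8.06, 8.03 and 8.23 in IL-2 samples. It passed (0.72 ± 0.21, adjusted p = 0.0329) although IL-2 replicate 1 lay below untreated replicate 2. The HSP90 gene Hsp90aa1 (0.67) and the constitutive HSP70 gene Hspa8 (0.45) rose as well. The DNAJ genes Dnajb1 (0.53, adjusted p = 0.0598) and Dnaja1 (0.35, adjusted p = 0.255) and the HSP110 family gene Hspa4 (0.47, adjusted p = 0.0599) did not pass.

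CCT is a double ring of 8 different subunits that folds actin, tubulin and other proteins, and 7 of its subunit genes rose. Cct3 was at 8.09, 7.17 and 7.16 in untreated and 8.23, 8.89, 8.95 and 9.20 in IL-2 samples, and Cct3 had the largest change of the 8 (1.34 ± 0.23, 2.54-fold, adjusted p = 0.000403). Its IL-2 replicate 1 stood only just above untreated replicate 2. Cct8 was at 7.57, 6.56 and 7.02 in untreated and 7.72, 8.20, 8.13 and 8.43 in IL-2 samples (1.07 ± 0.21, adjusted p = 0.00178), and Cct6a at 8.30, 8.03 and 7.88 in untreated and 8.70, 9.03, 9.002 and 9.16 in IL-2 samples (0.90 ± 0.15, adjusted p = 0.000255). Neither gene had overlapping groups. Cct7 (0.86), Cct5 (0.68), Tcp1 (0.56) and Cct2 (0.49) rose by less, and Cct4 (0.28 ± 0.13, adjusted p = 0.236) did not pass.

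The same samples stood at the edges for many members. IL-2 replicate 1 was the lowest IL-2 sample for 37 of 41 members (33.9% of all genes), untreated replicate 2 the highest untreated sample for 36 (40.9% of genes) and untreated replicate 3 the lowest for 27 (52.0% of genes). IL-2 replicate 1 and untreated replicate 2 are both in the high-intensity set. Untreated replicate 2, with no time in its title, is the only untreated sample there, while replicates 3 and 4 (8 h) are in the low-intensity set. Intensity set and untreated sample therefore cannot be told apart. Within the high-intensity set the IL-2 change was smaller than within the low-intensity set, a difference that was not tested. The median was 0.47 against 0.96 for ER folding genes, 0.37 against 1.01 for CCT, 0.27 against 0.80 for cytosolic and 0.57 against 1.08 for mitochondrial chaperones, and −0.05 against 0.26 for ER regulators. Within the low-intensity set 17 members passed and within the high-intensity set 0, where 1 residual degree of freedom was left. The count over all samples ranged from 24 to 33 when single IL-2 or untreated samples were left out. Calls that single samples ended were those of Ahsa1 and Cct2 (without any 1 of IL-2 replicates 2, 3 and 4 or untreated replicates 3 and 4, adjusted p up to 0.201 and 0.0989), Tcp1 (without any 1 of IL-2 replicates 2, 3 and 4 or untreated replicate 4, up to 0.117) and P4hb (without any 1 of IL-2 replicates 2, 3 and 4 or untreated replicate 3, up to 0.071). Manf was not called without IL-2 replicate 4 (adjusted p = 0.056) and Dnajc3 not without untreated replicate 3 (adjusted p = 0.051).

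**Figure D2:**
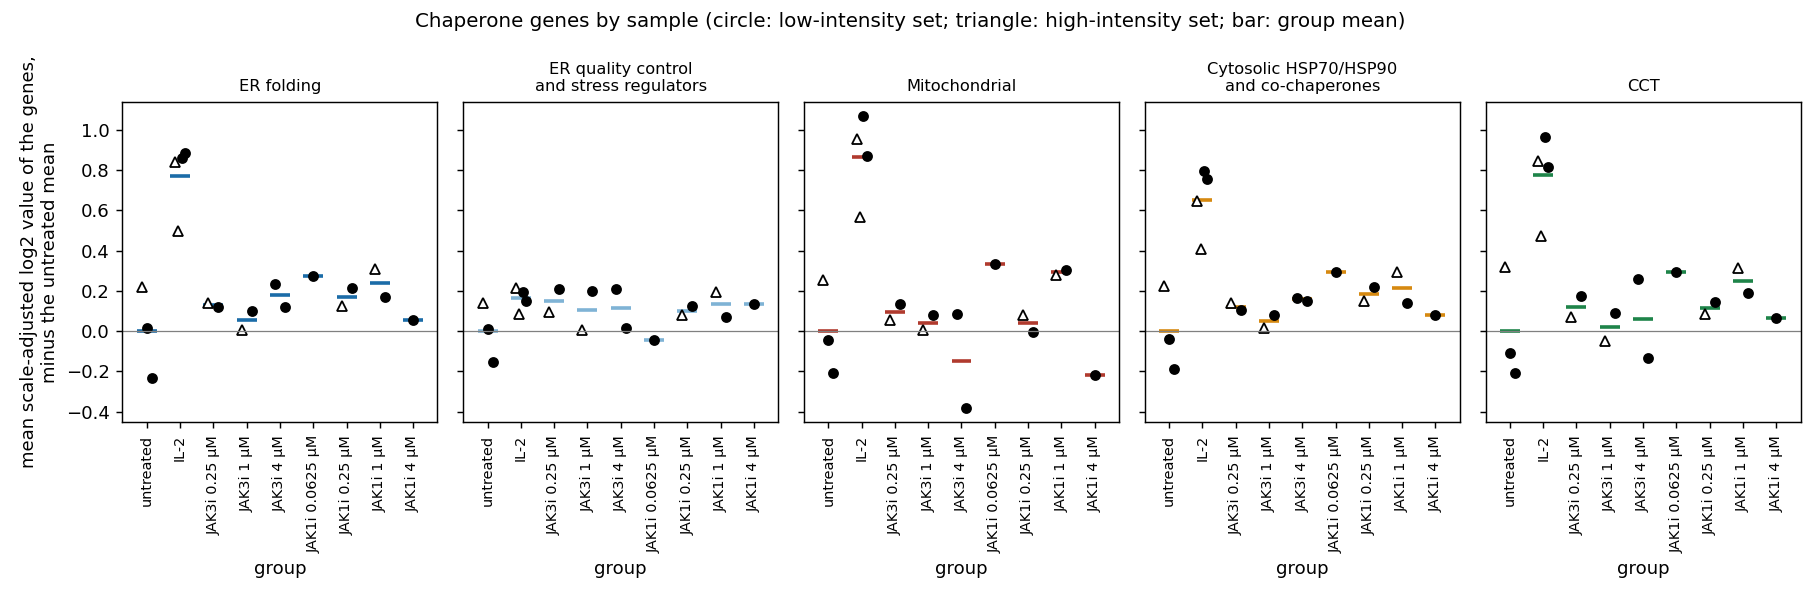
Mean scale-adjusted log2 level of each group of chaperone genes in every sample, minus the untreated mean (y axis), across the 9 treatment groups (x axis). Points are samples, triangles the high-intensity set, and bars the group means: in 4 of the 5 groups of genes the IL-2 samples lie above all others, with IL-2 replicate 1 lowest at 0.50 for ER folding and 0.48 for CCT.

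Partner genes of the chaperones were read from pathway lists, which were chosen with earlier results of these data known. In lists that hold no member, 1 of 11 genes listed as ER stress sensors and effectors rose with IL-2. Of all genes 6.56% rose, and that share stands beside each count in this paragraph. The gene was Eif2ak2 (1.95), which encodes an interferon-induced kinase and not an ER-resident one, and no other gene of that list passed. Next was Eif2ak3, the ER-resident kinase PERK, at −0.44 (adjusted p = 0.0804). Among 29 other ER folding, import and degradation genes 4 rose (median 0.22), with the smallest p for the prolyl isomerase Fkbp2 (0.65) and the translocon subunit Sec61a1 (0.61). Of 28 further cytosolic heat shock and co-chaperone genes 5 rose (median 0.23), with the smallest p for the HSP90-bound cyclophilin Ppid (0.74) and the HSP70-binding protein Hspbp1 (0.47). Of 22 mitochondrial import and protein quality genes 7 rose (median 0.37), with the smallest p for the import genes Timm8a1 (0.84) and Timm17a (0.84). Prefoldin hands substrates to CCT, and 3 of 13 prefoldin and tubulin cofactor genes rose (median 0.29), with the smallest p for Pfdn1 (0.55) and Pfdn4 (0.42). No gene of these 5 lists fell.

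With the JAK3 inhibitor, chaperone genes were lower than with IL-2 alone at every dose. Members that passed numbered 17 of 41 at 0.25 µM (2.26% of genes lower), 24 at 1 µM (3.69% of genes) and 18 at 4 µM (4.5% of genes), and 0 were higher. Median differences were −0.54, −0.65 and −0.55, with 0.06, 0.02 and −0.04 over all genes. Both inhibitor samples lay below all 4 IL-2 samples for 33, 34 and 31 members, against 9.96%, 11.5% and 18.3% of genes. These comparisons all use the same IL-2 samples as the comparison of IL-2 with untreated cells, so a low or high IL-2 sample moves every one of them. The counts at the lower doses hang on single samples: at 0.25 µM the count was 2 without either inhibitor replicate and 23 without IL-2 replicate 1, and at 1 µM it was 3 without replicate 1 and 8 without replicate 2. At 4 µM it was 10 without IL-2 replicate 3, 10 without IL-2 replicate 4 and 10 without inhibitor replicate 1. From 0.25 µM on the counts for both inhibitors also fell with the replicate number as a block, as given in the section on processing below. Within the low-intensity set alone the medians were −0.69, −0.66 and −0.65 with 1, 2 and 7 members called. Within the high-intensity set, which holds no 4 µM sample, they were −0.52 and −0.64 at 0.25 and 1 µM with 0 called by limma (7 and 9 at an unadjusted p under 0.05).

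With the JAK1 inhibitor, chaperone genes were also lower than with IL-2 alone from 0.25 µM on. At 0.0625 µM, with 1 sample assumed to vary like the other groups, 0 members passed by limma (0.0152% of genes lower) and 17 had an unadjusted p under 0.05. The estimates there were negative for 40 of 41 members (median −0.44, against 0.08 over all genes), and that sample lay below all IL-2 samples for 36 members, against 20.8% of genes. At 0.25 µM 14 members were lower (1.52% of genes), at 1 µM 13 (2.31%) and at 4 µM, again 1 sample, 11 (2.63%). Medians were −0.54, −0.50 and −0.64, against 0.05, 0.08 and −0.10 over all genes, and 0 members were higher. Inhibitor samples lay below all IL-2 samples for 36, 30 and 33 members, against 11.5%, 8.27% and 42.9% of genes. Leaving out inhibitor replicate 1 or 2 left 1 and 0 members at 0.25 µM and 5 and 0 at 1 µM. Without IL-2 replicates 2, 3 or 4 the count was 5, 5 and 4 at 0.25 µM, 7, 4 and 5 at 1 µM and 7, 6 and 4 at 4 µM, and without IL-2 replicate 1 it was 17 at 4 µM. Medians within the low-intensity set were −0.52, −0.57, −0.67 and −0.74 at the rising doses (0, 0, 1 and 3 members called). Those within the high-intensity set were −0.49 and −0.29 at 0.25 and 1 µM (0 called by limma, 1 and 2 at an unadjusted p under 0.05).

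**Figure D3:**
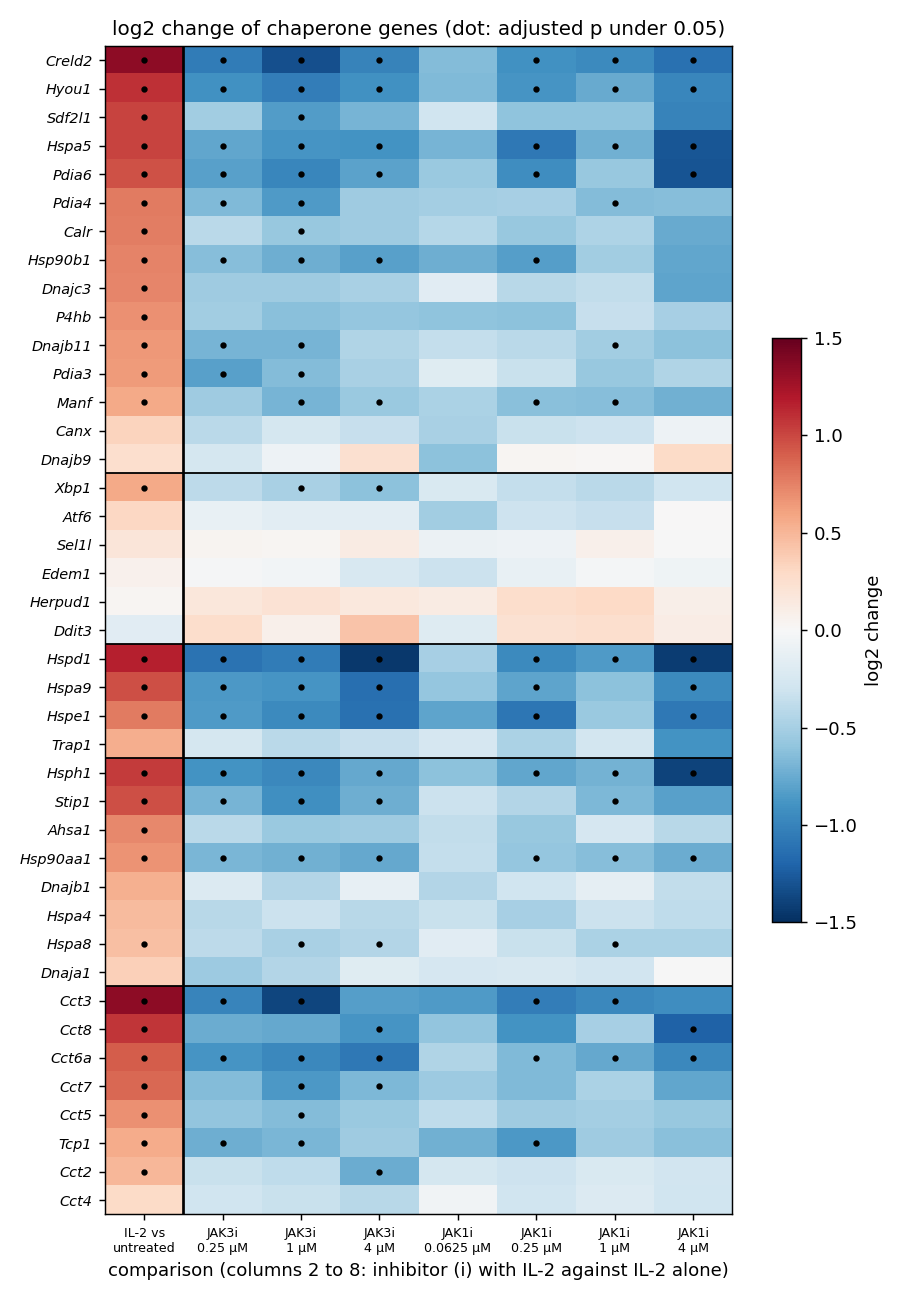
Fitted log2 change of each chaperone gene (rows, in the order of their IL-2 change within each group) for IL-2 against untreated and for each inhibitor dose against IL-2 alone (columns), with black dots at adjusted p under 0.05. All inhibitor columns share the IL-2 samples. From 0.25 µM on blue fills most rows of ER folding, mitochondrial, cytosolic and CCT genes, while Dnajb9 is positive at 4 µM of both inhibitors (0.23 for JAK3, 0.29 for JAK1) and Ddit3 at 4 µM of the JAK3 inhibitor (0.43), with none of these 3 values past the test.

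With the JAK3 inhibitor 8, 11 and 6 of the 15 ER folding genes were lower at 0.25, 1 and 4 µM, and with the JAK1 inhibitor 6, 6 and 4 at the same doses. Of the 4 mitochondrial genes 3 were lower at each of these JAK3 inhibitor doses, and 3, 1 and 3 at those of the JAK1 inhibitor. Of all genes 2.26%, 3.69% and 4.5% were lower at these JAK3 doses, and 1.52%, 2.31% and 2.63% at those of JAK1. Creld2 was at 7.65 and 7.50 at 0.25 µM, 7.14 and 7.48 at 1 µM and 7.49 and 7.76 at 4 µM of the JAK3 inhibitor. Creld2 under the JAK1 inhibitor was at 7.98 at 0.0625 µM, 7.63 and 7.81 at 0.25 µM, 7.73 and 7.63 at 1 µM and 7.51 at 4 µM. Every inhibitor sample was below the lowest IL-2 sample (8.26), and the largest difference from IL-2 was at 1 µM of the JAK3 inhibitor (-1.32 ± 0.23, adjusted p = 0.000738).

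Hyou1 was at 8.25 and 8.09 at 0.25 µM, 8.05 and 8.03 at 1 µM and 8.17 and 8.17 at 4 µM with the JAK3 inhibitor. Hyou1 under the JAK1 inhibitor was at 8.42 at 0.0625 µM, 8.12 and 8.28 at 0.25 µM, 8.34 and 8.32 at 1 µM and 8.10 at 4 µM. All were below the IL-2 samples, and the difference passed at each dose except 0.0625 µM (adjusted p from 0.00236 to 0.0472 where it passed, and 0.359 at 0.0625 µM). Sdf2l1 was at 7.97 and 7.90 at 0.25 µM, 7.44 and 7.79 at 1 µM and 7.38 and 8.12 at 4 µM of the JAK3 inhibitor. Sdf2l1 under the JAK1 inhibitor was at 8.15 at 0.0625 µM, 7.85 and 7.84 at 0.25 µM, 7.97 and 7.73 at 1 µM and 7.45 at 4 µM. One sample at 4 µM of the JAK3 inhibitor and the 0.0625 µM sample lay above IL-2 replicate 1, and Sdf2l1 passed only at 1 µM of the JAK3 inhibitor (-0.84 ± 0.21, adjusted p = 0.0192).

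Dnajb9 had a positive estimate at 4 µM of either inhibitor, where the other 14 ER folding genes had negative ones. Its samples were at 6.55 and 6.36 at 0.25 µM, 6.53 and 6.75 at 1 µM and 7.08 and 6.82 at 4 µM of the JAK3 inhibitor, beside 6.54, 6.43 and 6.43 in untreated and 6.53, 6.74, 6.97 and 6.62 in IL-2 samples. Dnajb9 under the JAK1 inhibitor was at 6.10 at 0.0625 µM, 6.81 and 6.67 at 0.25 µM, 6.76 and 6.70 at 1 µM and 7.01 at 4 µM. The difference from IL-2 at 4 µM was 0.23 with the JAK3 and 0.29 with the JAK1 inhibitor, and neither passed (adjusted p = 0.468 and 0.544). This gene was singled out after its values were seen.

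Xbp1 was lower with the JAK3 inhibitor, at 9.28 and 9.32 at 0.25 µM, 9.09 and 9.33 at 1 µM and 8.99 and 9.17 at 4 µM, where it passed at 1 µM (-0.49, adjusted p = 0.0309) and 4 µM (-0.61, adjusted p = 0.00755). Xbp1 under the JAK1 inhibitor was at 9.46 at 0.0625 µM, 9.37 and 9.30 at 0.25 µM, 9.39 and 9.19 at 1 µM and 9.39 at 4 µM and passed at no dose (adjusted p from 0.102 to 0.606). All inhibitor samples were below the lowest IL-2 sample of 9.60. Atf6 was at 8.11 and 8.32 at 0.25 µM, 8.12 and 8.23 at 1 µM and 8.17 and 8.18 at 4 µM of the JAK3 inhibitor. Atf6 under the JAK1 inhibitor was at 7.82 at 0.0625 µM, 8.00 and 8.04 at 0.25 µM, 8.18 and 7.79 at 1 µM and 8.33 at 4 µM, overlapping the untreated and the IL-2 samples. Ddit3 was at 6.66 and 6.90 at 0.25 µM, 6.46 and 6.72 at 1 µM and 6.94 and 6.95 at 4 µM of the JAK3 inhibitor. Ddit3 under the JAK1 inhibitor was at 6.33 at 0.0625 µM, 6.84 and 6.65 at 0.25 µM, 6.78 and 6.74 at 1 µM and 6.63 at 4 µM. Ddit3 at 4 µM of the JAK3 inhibitor lay above every untreated and IL-2 sample, with a difference of 0.43 from IL-2 (adjusted p = 0.0872).

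Mitochondrial genes, a group of 4, had the largest median difference from IL-2 of the 5 groups at every dose. With the JAK3 inhibitor it was −0.85, −0.92 and −1.13 at 0.25, 1 and 4 µM. With the JAK1 inhibitor it was −0.54, −0.87, −0.58 and −1.01 at the rising doses, the first and last with 1 sample. The JAK3 value at 4 µM was −0.92 without replicate 1 and −1.33 without replicate 2. Hspd1 was at 7.54 and 7.64 at 0.25 µM, 7.75 and 7.55 at 1 µM and 7.13 and 7.36 at 4 µM of the JAK3 inhibitor. Hspd1 under the JAK1 inhibitor was at 8.20 at 0.0625 µM, 7.79 and 7.69 at 0.25 µM, 7.79 and 7.90 at 1 µM and 7.27 at 4 µM. All were under the lowest IL-2 sample (8.48), and the differences from IL-2 at 4 µM were -1.45 ± 0.17 (adjusted p = 8.58e-06) and -1.42 ± 0.22 (adjusted p = 0.000319).

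Hspa9 was at 7.79 and 7.85 at 0.25 µM, 7.79 and 7.81 at 1 µM and 7.26 and 7.83 at 4 µM of the JAK3 inhibitor. Hspa9 under the JAK1 inhibitor was at 8.10 at 0.0625 µM, 7.84 and 7.94 at 0.25 µM, 8.07 and 8.07 at 1 µM and 7.73 at 4 µM. Its samples at 4 µM of the JAK3 inhibitor were far apart, and it passed at all doses but 0.0625 and 1 µM of the JAK1 inhibitor. Hspe1 was at 8.43 and 8.45 at 0.25 µM, 8.25 and 8.42 at 1 µM and 8.05 and 8.29 at 4 µM of the JAK3 inhibitor. Hspe1 under the JAK1 inhibitor was at 8.50 at 0.0625 µM, 8.39 and 8.04 at 0.25 µM, 8.72 and 8.76 at 1 µM and 8.22 at 4 µM, and passed at the same doses as Hspa9. The 3 Hspe1 samples at 4 µM lay near or below the lower end of the untreated range. The group's median above untreated was 0.87 with IL-2, 0.34 at 0.0625 µM of the JAK1 inhibitor, and −0.23 and −0.28 at 4 µM of the JAK3 and JAK1 inhibitors. The value for the JAK3 inhibitor was −0.03 without its replicate 1, −0.43 without its replicate 2 and −0.10 without untreated replicate 2. The mean of the 4 genes stood −0.38 from untreated in replicate 1 and 0.08 in replicate 2. Replicate 1 was lower than replicate 2 for 34 of 41 members, and its T cell markers averaged 6.03 against 6.95 and its neutrophil markers 7.82 against 8.77. The part of these cells in the difference was not tested. For Hspd1 the sign against untreated at 4 µM depended on the probe set, with −0.29 and −0.26 for the brightest and 0.09 and 0.23 for the other.

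Cytosolic genes passed in 3, 4 and 4 of 8 with the JAK3 inhibitor and in 2, 4 and 2 with the JAK1 inhibitor at 0.25, 1 and 4 µM. The shares of all genes lower were 2.26%, 3.69% and 4.5% for JAK3 and 1.52%, 2.31% and 2.63% for JAK1. Hsph1 was at 6.03 and 5.91 at 0.25 µM, 5.87 and 5.93 at 1 µM and 6.09 and 6.11 at 4 µM of the JAK3 inhibitor. Hsph1 under the JAK1 inhibitor was at 6.25 at 0.0625 µM, 6.10 and 6.08 at 0.25 µM, 6.20 and 6.11 at 1 µM and 5.48 at 4 µM. The 4 µM JAK1 sample was the lowest of all 19 samples for Hsph1 (-1.38 ± 0.26 from IL-2, adjusted p = 0.00275). That Hsph1 value of 5.48 lay below the median of its array (5.70). Stip1 was at 8.00 and 7.95 at 0.25 µM, 7.72 and 7.79 at 1 µM and 7.89 and 7.99 at 4 µM of the JAK3 inhibitor. Stip1 under the JAK1 inhibitor was at 8.34 at 0.0625 µM, 8.04 and 8.42 at 0.25 µM, 8.04 and 7.96 at 1 µM and 7.86 at 4 µM. The Stip1 replicates at 0.25 µM of the JAK1 inhibitor were wide apart, and the difference there did not pass (-0.44, adjusted p = 0.274), while it passed at all 3 JAK3 doses. Ahsa1 was at 7.62 and 7.54 at 0.25 µM, 7.28 and 7.58 at 1 µM and 7.32 and 7.59 at 4 µM of the JAK3 inhibitor. Ahsa1 under the JAK1 inhibitor was at 7.62 at 0.0625 µM, 7.22 and 7.61 at 0.25 µM, 7.84 and 7.64 at 1 µM and 7.58 at 4 µM, overlapping the IL-2 samples, and passed at no dose.

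CCT subunits passed in 3, 5 and 4 of 8 with the JAK3 inhibitor and in 3, 2 and 2 with the JAK1 inhibitor at 0.25, 1 and 4 µM. Beside these counts, 2.26%, 3.69% and 4.5% of all genes were lower for JAK3 and 1.52%, 2.31% and 2.63% for JAK1. Cct3 was at 7.86 and 7.80 at 0.25 µM, 7.35 and 7.53 at 1 µM and 7.83 and 8.16 at 4 µM of the JAK3 inhibitor. Cct3 under the JAK1 inhibitor was at 7.97 at 0.0625 µM, 7.59 and 7.97 at 0.25 µM, 8.00 and 7.71 at 1 µM and 7.88 at 4 µM. Among inhibitor samples its lowest values were at 1 µM of the JAK3 inhibitor (-1.37 ± 0.26 from IL-2, adjusted p = 0.00156). Cct8 was at 7.23 and 7.53 at 0.25 µM, 7.30 and 7.41 at 1 µM and 6.91 and 7.56 at 4 µM of the JAK3 inhibitor. Cct8 under the JAK1 inhibitor was at 7.53 at 0.0625 µM, 7.19 and 7.26 at 0.25 µM, 7.66 and 7.58 at 1 µM and 6.91 at 4 µM, and it passed only at 4 µM of either inhibitor (adjusted p = 0.0307 and 0.0342). Cct6a was at 7.96 and 8.21 at 0.25 µM, 7.95 and 8.06 at 1 µM and 7.78 and 8.01 at 4 µM of the JAK3 inhibitor. Cct6a under the JAK1 inhibitor was at 8.52 at 0.0625 µM, 8.38 and 8.25 at 0.25 µM, 8.31 and 8.10 at 1 µM and 8.00 at 4 µM, below all IL-2 samples, and passed at every dose but 0.0625 µM.

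Set beside each other at equal dose, the inhibitors gave no chaperone gene a difference that passed in the fit of all groups. When only the groups compared were fitted, 1 passed, at 0.25 µM, and the share of all genes there is not given here. At 0.25 µM 0 members passed by limma, against 0.451% of genes in either direction, and 1 had an unadjusted p under 0.05 (Pdia3, 0.48, JAK1 minus JAK3, adjusted p = 0.54). At 1 µM 0 passed, as did 0% of genes, and 0 had an unadjusted p under 0.05, while 39 of 41 estimates were positive with a median of 0.16 (all genes 0.06). At 4 µM 0 passed, as did 0% of genes, with 1 at an unadjusted p under 0.05 (Hsph1, -0.62, 95% interval -1.20 to -0.04, adjusted p = 1). The number of such comparisons was 3, each adjusted over all genes. The missed thresholds do not show that the inhibitors act alike: the 95% intervals of all members ran from −0.75 to 0.88 at 0.25 µM, −0.56 to 1.03 at 1 µM and −1.21 to 0.92 at 4 µM, so that differences near the size of the IL-2 change remain possible for some genes.

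**Figure D4:**
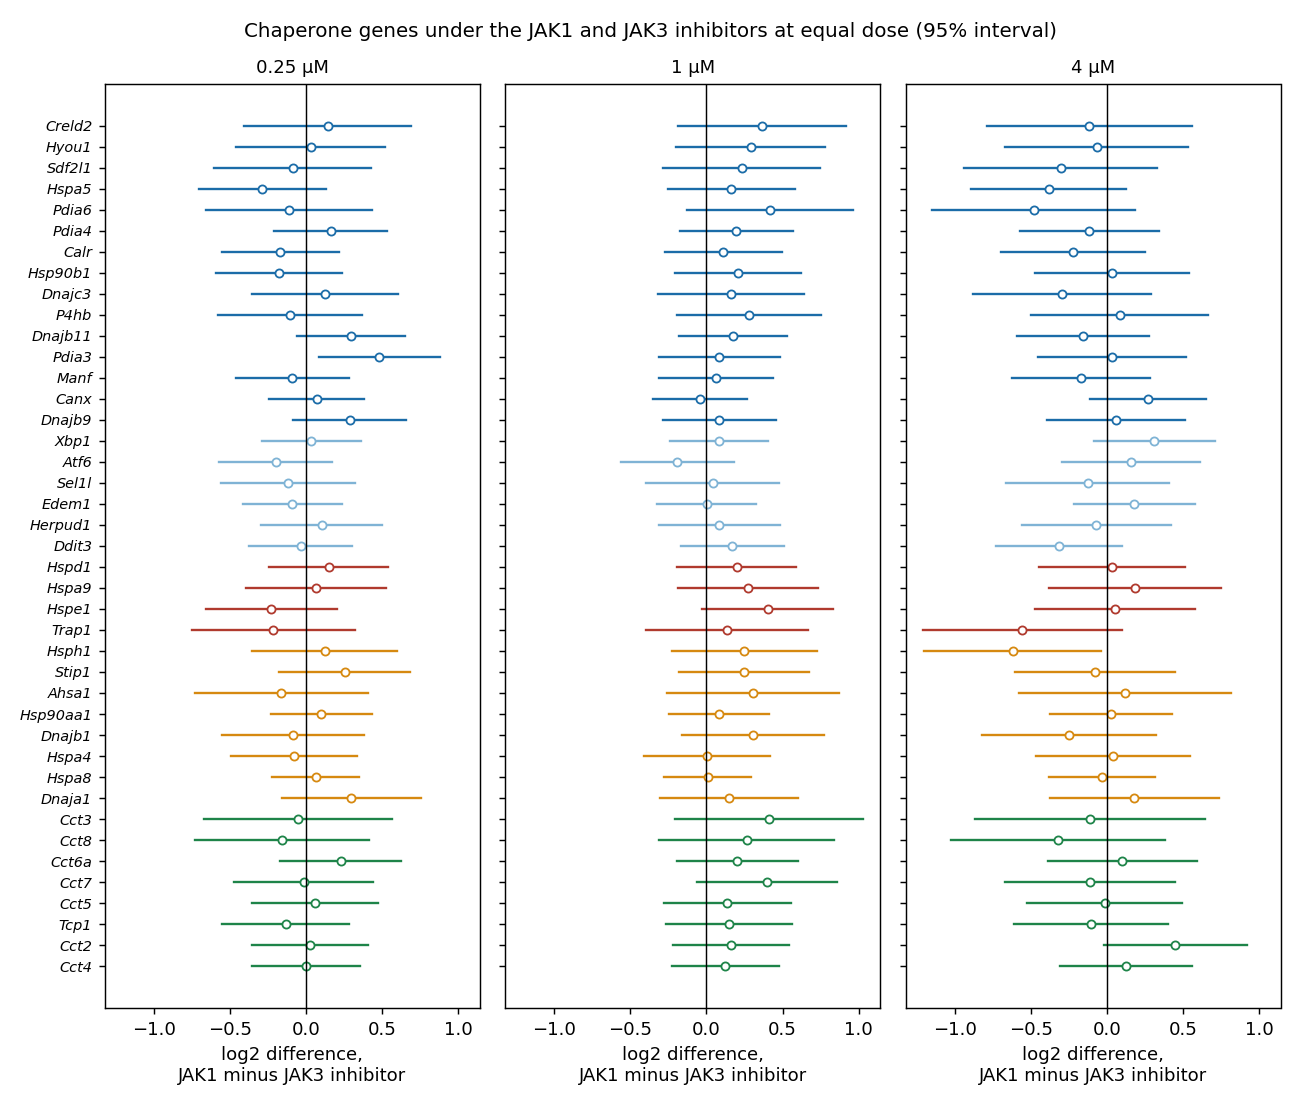
Difference between the JAK1 and the JAK3 inhibitor at equal dose for each chaperone gene (x axis, log2 units, JAK1 minus JAK3, open circle with 95% interval; colours mark the groups of genes from ER folding at the top to CCT at the bottom). No gene passed at any of the 3 doses in the fit of all groups that is plotted, and at 1 µM 39 of 41 estimates lie to the right of 0.

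NK cell markers gave other values at the low doses of the JAK1 inhibitor. At 0.25 µM 0 of 14 NK markers were lower than with IL-2 (4 at an unadjusted p under 0.05), while 14 of 41 chaperone genes were (1.52% of genes). That 14 was 1 or 0 without inhibitor replicate 1 or 2 and 5, 5 or 4 without IL-2 replicate 2, 3 or 4, and the difference between markers and chaperone genes was not tested. At the same dose of the JAK3 inhibitor 13 of the 14 markers and 17 chaperone genes were lower (2.26% of genes). Of the 14 markers 5 were higher with the JAK1 than with the JAK3 inhibitor at 0.25 µM, against 0.451% of genes in either direction. In the 2 samples at 1 µM of the JAK1 inhibitor the markers averaged 8.58 and 7.85, far apart. The markers averaged 8.74 and 8.99 in the samples at 0.25 µM of the JAK1 inhibitor and 8.95 at 0.0625 µM, near the IL-2 range. At 0.25 µM of the JAK3 inhibitor they averaged 7.80 and 7.84. ER folding genes in these samples stood a median 0.21 above untreated at 0.25 µM of the JAK1 inhibitor and 0.14 at 0.25 µM of the JAK3 inhibitor, against 0.74 with IL-2. Macrophage and monocyte markers averaged 6.64 in both samples at 0.25 µM of the JAK1 and 7.21 to 7.23 at 0.25 µM of the JAK3 inhibitor, and their part was not tested.

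Per 4-fold step of dose, 0 members had a slope that passed with the JAK3 inhibitor (0.152% of genes, 2 members at an unadjusted p under 0.05) or with the JAK1 inhibitor (2.78% of genes, 3 members at an unadjusted p under 0.05) by limma. The steepest were Dnajb9, which had slopes of 0.25 (adjusted p = 0.448) and 0.27 (adjusted p = 0.0649) with the JAK3 and JAK1 inhibitors, and Hspd1, with -0.27 under the JAK1 inhibitor (adjusted p = 0.0778). For the JAK1 inhibitor 7 members passed when only the groups compared were fitted (6 with a negative slope and 1 with a positive one) and 2 after quantile normalization (1 in each direction). Shares of all genes passing in these alternatives are not given here, so neither count sets the members apart from other genes. The median of the members above untreated was 0.29, 0.17, 0.26 and 0.03 at 0.0625, 0.25, 1 and 4 µM of the JAK1 inhibitor. With the JAK3 inhibitor it was 0.14, 0.05 and 0.16 at 0.25, 1 and 4 µM.

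At 4 µM the chaperone genes stood near their untreated level. Against untreated cells 0 members passed by limma with the JAK3 inhibitor (0% of genes) and 0 with the JAK1 inhibitor (0% of genes), and 1 member had an unadjusted p under 0.05 in each. That member was Dnajb9 both times, with 0.48 (95% interval 0.14 to 0.83, adjusted p = 0.513) and 0.54 (95% interval 0.11 to 0.98, adjusted p = 0.738), in comparisons that share the untreated samples. Hspd1 had -0.29 (95% interval -0.65 to 0.08) and -0.26 (95% interval -0.72 to 0.20) and Hspa5 0.12 and -0.27. A miss in these comparisons does not show that the levels were equal.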

How the data were processed

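Gene expression of 19 splenic NK cell samples was measured on Affymetrix Mouse Gene 1.0 ST arrays. The deposited intensities were made by the authors with Affymetrix Power Tools and RMA, per the submitters' processing notes, and are on a linear scale, and log2 values were computed here. Versions of these tools and what sets the 2 intensity scales apart are not given in the sources used here. Of 24922 probe sets 21425 had 1 gene symbol in the platform annotation, 1399 several and 2098 none, and the brightest probe set by mean stood for each of the 19752 genes. Precision is limited by the number of arrays, and a group of 1 sample was assumed to vary like the others.

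All 9 groups were fitted together with limma 3.58.1 (R 4.3.3, intensity trend, 9 residual degrees of freedom) with a term for the intensity set, and p-values were adjusted over all genes by Benjamini-Hochberg with a threshold of 0.05. Tables were joined with pandas 2.3.3 and numpy 2.4.6 and plots drawn with matplotlib 3.10.9 under Python 3.11.15.

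The members and lists were chosen with earlier results of these data known. Values in every sample are given for the 3 called genes of each group with the largest IL-2 change and for Xbp1, Atf6 and Ddit3, fitted changes for members not called for IL-2, and the 2 genes of smallest p for each pathway list. Symbols matched for 11 of 12 ER stress, 29 of 30 ER folding, 28 of 30 cytosolic, 22 of 22 mitochondrial and 13 of 13 prefoldin list entries, and for 14 of 14 NK, 12 of 15 macrophage, 12 of 12 neutrophil, 10 of 11 B cell, 12 of 12 plasma cell, 10 of 10 dendritic cell, 10 of 10 T cell and 5 of 9 erythroid markers. Alternatives were quantile normalization, median centring, the replicate number as a block, each intensity set alone, a filter on dim genes, the mean over probe sets, no intensity trend, only the groups compared, and leaving out each sample. Fitting each probe set on its own was added after the data had been seen.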

Additional observations from a re-analysis of the deposited data

Results flagged for a closer look

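Within the 4 IL-2 samples, 5 of 41 members had 1 sample standing apart by Dixon's ratio of its gap to the whole range. IL-2 replicate 1 was the low sample for Sdf2l1 (8.073), Dnajc3 (7.774), Xbp1 (9.599) and Cct5 (8.662), all as scale-adjusted log2 levels. IL-2 replicate 3 was the high sample for Dnaja1 (7.868). Chance gives about 1 in 20 such groups, and 7.49% of all genes had one. The share that technical or biological variation had in the low replicate was not tested.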

How the results depend on the processing

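No called change of a member reversed in any alternative. Recomputed results of single called genes kept their side of the threshold in 1306 cases and lost it in 562. For IL-2 against untreated, 16 of the 29 called members passed in all 15 alternatives outside the high-intensity set. Within the low-intensity set alone members called numbered 17 for IL-2, 1, 2 and 7 for 0.25, 1 and 4 µM of the JAK3 inhibitor and 0, 1 and 3 for the JAK1 inhibitor. Within the high-intensity set alone, with 1 residual degree of freedom, they numbered 0 for IL-2 (4 at an unadjusted p under 0.05 by limma) and 0 at 0.25 and 1 µM of either inhibitor. Quantile normalization gave 27 at 0.25 µM of the JAK3 inhibitor, 25 and 18 at 1 and 4 µM of the JAK1 inhibitor and 2 for the JAK1 slope. It gave 1447 genes higher and 1238 lower with IL-2, against 1296 and 512 of 19752 in the main fit, and a members' median of 0.49. Median centring gave 6 at 4 µM of the JAK1 inhibitor. These scalings moved the median of all genes by over 0.1 in 2 comparisons: from −0.10 to 0.01 at 4 µM (quantile) and from 0.08 to −0.03 at 0.0625 µM (centring) of the JAK1 inhibitor. Fitting only the groups compared gave 31 at 0.25 µM of the JAK3 inhibitor, 2, 29, 25 and 23 at the rising doses of the JAK1 inhibitor, 1 between the inhibitors at 0.25 µM and 7 for the JAK1 slope. The causes of these changed counts were not tested. Apart from the quantile result for IL-2, shares of all genes called in the alternatives are not given here. Counts that rise or fall with a setting therefore do not set the members apart from other genes.

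With the replicate number as a block (replicate block), 32 members were called for IL-2, 4, 10 and 1 for the rising doses of the JAK3 inhibitor, 0, 1 and 3 for 0.25, 1 and 4 µM of the JAK1 inhibitor and 7 for the JAK1 slope. Deviations of same-number samples correlated at −0.54 to 0.698. In groups of 2 both deviations mirror each other, so these correlations cannot decide whether the numbers pair samples. The numbers were not taken as pairs because the labels do not say that a number marks a shared animal, culture or day.

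Leaving out 1 sample gave 24 to 33 members for IL-2, 2 to 23, 3 to 26 and 10 to 25 for the rising doses of the JAK3 inhibitor, and 0 to 0, 0 to 18, 0 to 19 and 4 to 17 for those of the JAK1 inhibitor, with negative medians for each inhibitor dose against IL-2. The number of arrays and the intensity sets limit every count.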

Other observations

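Mitochondrial import and protein quality genes, which bring precursor proteins to the matrix chaperones and remove damaged ones, had positive estimates for IL-2 in 22 of 22 genes. Of these 7 passed, against 6.56% of all genes higher. Against IL-2 alone, 5, 6 and 5 of the 22 were lower at 0.25, 1 and 4 µM of the JAK3 inhibitor (2.26%, 3.69% and 4.5% of genes). At the rising doses of the JAK1 inhibitor 0, 4, 1 and 2 were lower (0.0152%, 1.52%, 2.31% and 2.63% of genes). These comparisons share the IL-2 samples.

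Other probe sets of 5 members gave the same IL-2 calls, a comparison added after the data had been seen. Hsp90aa1, a cytosolic HSP90, changed by 0.63 and 0.61 by its other probe sets, beside 0.67. Hspa8, the constitutive cytosolic HSP70, changed by 0.49 and 0.45, beside 0.45. One Hsp90aa1 probe set was not called at 0.25, 1 and 4 µM of the JAK1 inhibitor (adjusted p = 0.0739, 0.107 and 0.184), where the brightest was.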
